A study of Rattus norvegicus with 9 samples.

Results

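The genes described here are 9 interferon-stimulated genes, Isg15, Mx1, Mx2, Irf1, Irf7, Irf9, Stat2, Oas1a and Bst2, taken by symbol from a deposited table of 30446 rat genes. All 9 were found in the table, each under a single identifier, and all 9 passed the filter on low counts that left 16627 genes for testing. The assay was RNA sequencing of dorsal root ganglia, where sensory neurons have their cell bodies, wrapped by glia, and all rats were male and of the Sprague-Dawley strain. The 9 libraries form 3 groups of 3, from rats with a spinal cord injury (SCI), rats with a sham operation and naive rats. Ganglia of both sides from the lowest thoracic and the lumbar levels were assayed, and every group, the naive rats included, carries the label of 30 days after injury. The design text gives 3 biological replicates for each group. The labels give no age and no level or method of injury. They do not say whether a library came from a single animal or a pool. Whether the p-values below measure spread between animals or between pools is therefore not known.

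Interferons are secreted signals of antiviral defence. Type I interferons bind the receptor chains Ifnar1 and Ifnar2, whose kinases Jak1 and Tyk2 activate STAT proteins. Stat2 joins Irf9 in a complex that binds the interferon-stimulated response element (ISRE) in target genes. Type II interferon, encoded by Ifng, acts through another receptor and other sites, called GAS. The products of the target genes block viral replication or release, and others, such as Irf1 and Irf7, are transcription factors that extend the response. In ganglia, resident macrophages, glia and neurons can all carry interferon receptors, and a bulk library does not separate them.

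The start regions of the genes were read for the elements through which these signals are known to act. RefSeq promoter sequences, 250 bases before to 50 after the gene start, were matched by symbol for 7 of the 9 genes, without Isg15 and Mx2. They were searched on both strands for the ISRE core, which is GAAA, any 2 bases and GAAA again (TTTC, any 2 bases and TTTC on the other strand), and for the GAS letters TTCNNNGAA, which read the same on both strands. Of these 7 promoters, 3 held the ISRE core and 4 held GAS letters. Of 33469 rat promoters of the same length, 3.92% held the ISRE core and 8.87% held GAS letters. The promoters of 4 genes that lay higher in SCI than in naive ganglia are shown first. That of Mx1, which was not called, stands last and does not stand for all genes that were not called. Capitals mark both motifs, which overlap each other in Bst2 and themselves in Oas1a and Bst2.
Bst2 (GRCr8, chr16:18254918-18255217, minus strand): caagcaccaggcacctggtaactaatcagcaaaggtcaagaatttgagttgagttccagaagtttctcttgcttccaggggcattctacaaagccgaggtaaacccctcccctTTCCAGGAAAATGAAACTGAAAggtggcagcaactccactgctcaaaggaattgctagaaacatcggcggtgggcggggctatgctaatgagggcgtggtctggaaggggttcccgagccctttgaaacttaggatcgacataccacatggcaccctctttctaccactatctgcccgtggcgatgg
Oas1a (GRCr8, chr12:41330216-41330515, plus strand): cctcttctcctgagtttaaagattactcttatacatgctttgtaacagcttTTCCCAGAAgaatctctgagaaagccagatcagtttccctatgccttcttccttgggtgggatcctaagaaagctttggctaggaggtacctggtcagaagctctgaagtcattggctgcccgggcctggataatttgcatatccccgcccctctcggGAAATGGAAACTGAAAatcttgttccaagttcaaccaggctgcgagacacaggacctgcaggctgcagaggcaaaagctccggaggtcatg
Irf7 (GRCr8, chr1:205799974-205800273, minus strand): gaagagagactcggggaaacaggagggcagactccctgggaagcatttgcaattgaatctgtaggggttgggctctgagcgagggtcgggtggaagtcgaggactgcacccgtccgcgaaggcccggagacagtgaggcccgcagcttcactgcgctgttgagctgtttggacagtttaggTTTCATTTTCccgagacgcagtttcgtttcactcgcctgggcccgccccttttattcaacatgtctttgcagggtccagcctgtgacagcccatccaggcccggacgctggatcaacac
Irf1 (GRCr8, chr10:38417685-38417984, plus strand): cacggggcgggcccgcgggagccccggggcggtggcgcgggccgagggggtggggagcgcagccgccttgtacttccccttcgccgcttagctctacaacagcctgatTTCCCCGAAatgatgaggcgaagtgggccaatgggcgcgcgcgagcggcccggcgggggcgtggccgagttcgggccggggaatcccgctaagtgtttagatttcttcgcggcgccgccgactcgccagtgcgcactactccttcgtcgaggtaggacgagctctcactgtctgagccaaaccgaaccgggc
Mx1 (GRCr8, chr11:50294557-50294856, minus strand): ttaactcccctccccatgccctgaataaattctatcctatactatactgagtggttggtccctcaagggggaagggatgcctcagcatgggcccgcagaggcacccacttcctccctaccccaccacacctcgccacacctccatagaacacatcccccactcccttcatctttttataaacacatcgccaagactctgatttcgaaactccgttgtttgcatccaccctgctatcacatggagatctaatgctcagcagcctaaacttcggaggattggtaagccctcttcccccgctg
In Bst2 the ISRE cores lay at -131 to -122 and -125 to -116 from the gene start, and the GAS letters at -137 to -129. The cores of Oas1a lay at -41 to -32 and -35 to -26, with GAS letters at -199 to -191. Irf7 held a core at -69 to -60, on the reverse strand. Irf1 held GAS letters at -142 to -134 and no ISRE core. Irf9, whose promoter is not shown, held GAS letters at -99 to -91, and neither motif was found in the windows of Mx1 and Stat2. A match of letters describes the sequence and is not evidence of binding.

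Levels are given in CPM, that is, counts scaled to a common library size with TMM factors. Depth varied from 16724878 to 32060538 counts a library, so that 1 CPM rests on 16.8 to 32.3 counts, and the lowest count of any of the 9 genes in a library was 121. The neuron marker Prph averaged 3010 ± 263 CPM in SCI ganglia, 3140 ± 400 CPM in sham ganglia and 2370 ± 34.2 CPM in naive ganglia (SD, n = 3 each), in keeping with the labelled tissue. On the first principal component, which held 59.3% of the variance, the SCI and sham libraries scored 14.2 to 25.7 and the naive libraries -43.5 to -41.6. The labels give no batch, so an effect of injury or surgery cannot be told apart from a batch that holds the naive libraries alone. Called means an adjusted p under 0.05 in edgeR's quasi-likelihood test across all tested genes.

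Isg15 (ENSRNOG00000021802), which encodes a ubiquitin-like protein that interferon-treated cells attach to other proteins, showed the largest change of the 9 genes. It stood at 9.21, 10.8 and 12.8 CPM in the SCI libraries 1 to 3, at 12.2, 10.5 and 12.4 CPM in the sham libraries and at 6.22, 6.64 and 6.74 CPM in the naive libraries. Every SCI and every sham library lay above every naive library, while the SCI and sham libraries overlapped. The log2 change was 0.73 (SE 0.13, edgeR adjusted p = 0.000395) in SCI against naive and 0.84 (SE 0.13, edgeR adjusted p = 0.000123) in sham against naive. In bulk ganglia, here and below, a change in the number of cells of a type and a change in RNA per cell cannot be told apart.

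Bst2 (ENSRNOG00000059900) encodes tetherin, a membrane protein that holds budding viruses at the cell surface. Its level was 38.1, 39.2 and 40.4 CPM in the SCI libraries, 36.2, 39.7 and 48.4 CPM in the sham libraries and 25.4, 24.7 and 29.9 CPM in the naive libraries. Again both operated groups lay wholly above the naive group and overlapped each other. Bst2 was higher in SCI than in naive ganglia by a log2 change of 0.56 (SE 0.10, edgeR adjusted p = 0.000646). In sham against naive the log2 change was 0.63 (SE 0.10, edgeR adjusted p = 0.000225).

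Oas1a (ENSRNOG00000001369), an oligoadenylate synthetase that senses double-stranded RNA, was the least abundant of the 9 genes in counts. It stood at 4.39, 7.51 and 8.18 CPM in the SCI libraries, 7.78, 7.20 and 6.50 CPM in the sham libraries and 4.45, 4.15 and 5.07 CPM in the naive libraries. SCI 1 lay within the naive range, and the other SCI libraries lay above it. The log2 change was 0.53 (SE 0.20, edgeR adjusted p = 0.0395) in SCI against naive and 0.65 (SE 0.20, edgeR adjusted p = 0.0136) in sham against naive. The call in SCI was lost without SCI 2, SCI 3, sham 2, naive 1 or naive 2, at edgeR adjusted p of 0.0562 to 0.195, with limma-voom (adjusted p = 0.0858) and after thinning to equal depth (adjusted p = 0.0783), and the call in sham was lost after thinning (edgeR adjusted p = 0.0568). Oas1a belongs to a cluster of similar gene copies, among which counting may split or lose reads, so its level is uncertain.

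The Mx genes encode dynamin-like GTPases that block viral particles inside the cell, and neither was called. Mx1 (ENSRNOG00000001959) stood at 11.8, 11.8 and 16.9 CPM in the SCI libraries, 15.8, 11.5 and 16.1 CPM in the sham libraries and 14.4, 12.3 and 13.7 CPM in the naive libraries. Mx2 (ENSRNOG00000001963) stood at 37.4, 40.3 and 49.7 CPM in the SCI libraries, 49.8, 39.2 and 38.0 CPM in the sham libraries and 39.5, 37.4 and 40.9 CPM in the naive libraries. The groups overlapped for both genes. The interval of the change in SCI against naive ran from 0.796-fold to 1.25-fold for Mx1 and from 0.910-fold to 1.28-fold for Mx2 (95%, edgeR). Mx1 and Mx2 are also related copies, between which reads may be split.

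**Figure D1:**
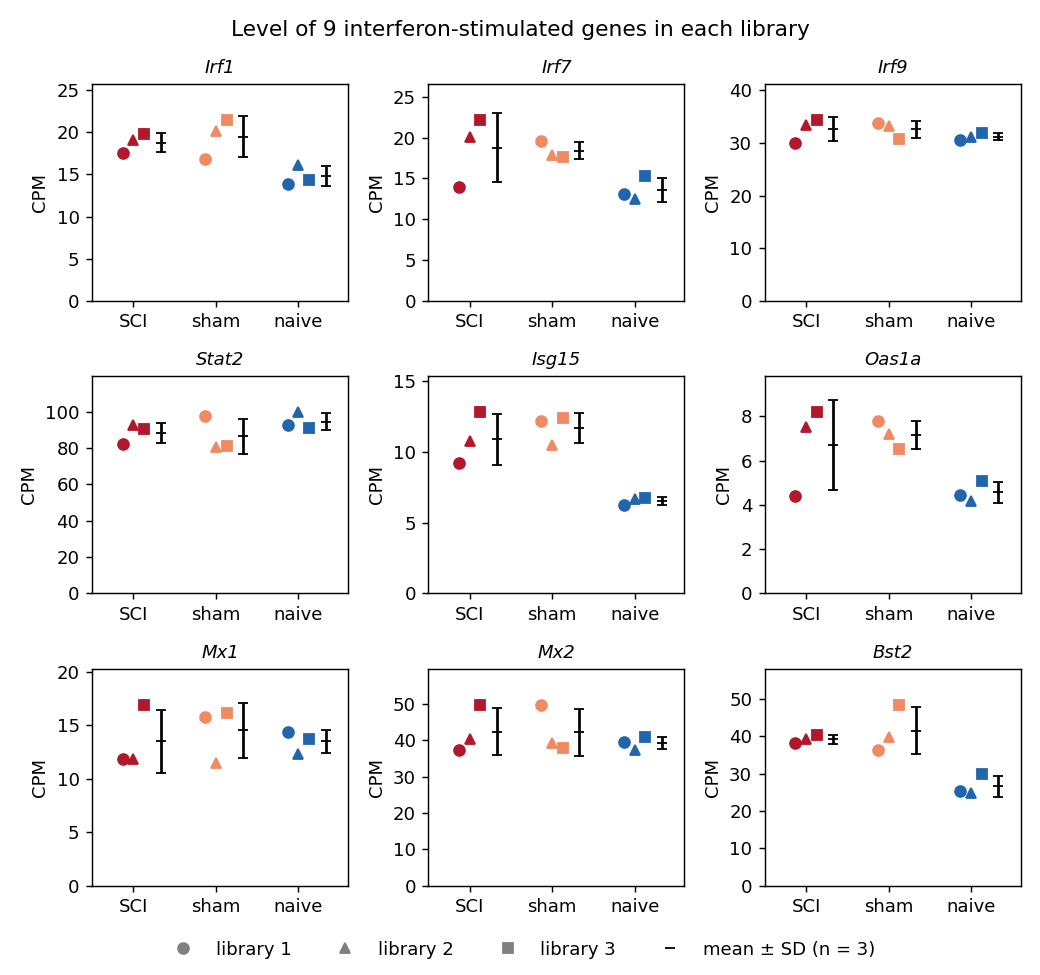
CPM of each of the 9 genes (vertical axes, from 0) in the SCI, sham and naive libraries (horizontal axes), with a symbol for each library number and the mean ± SD (n = 3) beside each group. Isg15, Bst2 and Irf1 lie higher in all SCI and sham libraries than in any naive library, and SCI 1 lies near the naive libraries for Irf7 and Oas1a.

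Among the transcription factors, Irf1 and Irf7 were higher in both operated groups than in naive ganglia, while Irf9 and Stat2 were not called. Irf1 (ENSRNOG00000008144), a factor induced by type II interferon, stood at 17.6, 19.1 and 19.8 CPM in the SCI libraries, 16.8, 20.2 and 21.5 CPM in the sham libraries and 13.9, 16.1 and 14.3 CPM in the naive libraries. No SCI or sham library reached down to the naive range, and the log2 change was 0.35 (SE 0.10, edgeR adjusted p = 0.0126) in SCI and 0.39 (SE 0.10, edgeR adjusted p = 0.00607) in sham, each against naive. Irf7 (ENSRNOG00000017414), the factor that amplifies type I interferon production, stood at 14.0, 20.1 and 22.2 CPM in the SCI libraries, 19.6, 17.9 and 17.6 CPM in the sham libraries and 13.1, 12.5 and 15.3 CPM in the naive libraries. SCI 1 fell inside the naive range, whereas the sham libraries all lay above it. The log2 change of Irf7 was 0.45 (SE 0.14, edgeR adjusted p = 0.0192) in SCI against naive and 0.43 (SE 0.14, edgeR adjusted p = 0.0233) in sham against naive. Some of these calls were lost with a library left out, which also leaves fewer replicates, and the cause was not tested. Irf1 in SCI missed the threshold without SCI 3, naive 1 or naive 3, at edgeR adjusted p of 0.0521 to 0.0537, and after thinning (0.0548). Irf7 in SCI missed it without SCI 2, SCI 3, naive 1 or naive 2 (0.0609 to 0.111), and in sham without sham 1, naive 1 or naive 2 (0.0634 to 0.0805).

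Stat2 and Irf9 are the parts of the ISRE-binding complex that carry it to type I interferon targets. Stat2 (ENSRNOG00000031081) stood at 82.1, 92.5 and 90.6 CPM in the SCI libraries, 97.4, 80.4 and 81.3 CPM in the sham libraries and 92.6, 99.7 and 90.9 CPM in the naive libraries, so that all 3 groups overlapped. Its log2 change was -0.10 (SE 0.08) in SCI against naive and -0.13 (SE 0.08) in sham against naive, with an edgeR adjusted p of 0.346 in SCI and of 0.214 in sham. Without sham 1, Stat2 was called lower in sham than in naive (log2 change -0.23, edgeR adjusted p = 0.0106). Irf9 (ENSRNOG00000019478) varied least, with 30.0, 33.5 and 34.4 CPM in the SCI libraries, 33.7, 33.3 and 30.8 CPM in the sham libraries and 30.5, 31.2 and 31.9 CPM in the naive libraries. Its highest library was 1.15 times its lowest, against 2.06 times for Isg15. The interval of the Irf9 change in SCI against naive ran from 0.937-fold to 1.16-fold (95%, edgeR).

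The comparison of SCI with sham ganglia asks what differed beyond the operation, and none of the 9 genes was called in it. The log2 changes lay between -0.13 for Oas1a and 0.03 for Stat2, with a median of -0.047. SCI and sham libraries overlapped for each of the 9 genes. They did not overlap for 6.41% of all tested genes, a share so low that overlap of all 9 does not set these genes apart. The edgeR adjusted p was 1.0 for each gene, and no unadjusted p was under 0.05. Of all 16627 tested genes, 0% were called between SCI and sham by edgeR, and 3.16% (526 genes) had an unadjusted p under 0.05. DESeq2 called 9 of all genes and limma-voom called 0. The intervals bound what may have been missed. For Isg15 the interval ran from 0.770-fold to 1.12-fold, for Bst2 from 0.813-fold to 1.11-fold, and for Oas1a, the widest, from 0.685-fold to 1.23-fold (95%, edgeR). None of the 9 genes was called by DESeq2 or limma-voom either.

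Against naive ganglia, 5 of the 9 genes were called higher in SCI and none lower, and the same 5, Isg15, Bst2, Oas1a, Irf1 and Irf7, were called higher in sham. The 9 genes were chosen with earlier results of these data known, so these counts describe the 9 and do not test them as a set. Of all tested genes, 48.5% were called in SCI against naive and 50.6% in sham against naive. By direction, 23.9% were called higher and 24.6% lower in SCI against naive, and 24.7% were called higher and 25.9% lower in sham against naive. The median log2 change of the 9 genes was 0.35 in SCI and 0.39 in sham, and over all tested genes it was 0.0115 in SCI and 0.00048 in sham. Both comparisons use the same naive libraries and are not independent. SCI libraries lay wholly above naive libraries for 3 of the 9 genes, as for 32.2% of all tested genes, and sham libraries for 5 of 9, as for 27.5%. None of the 9 lay wholly below, as 31.8% of all tested genes did in SCI and 29.2% in sham. In either direction the groups did not overlap for 64.1% of all tested genes in SCI against naive and 56.7% in sham against naive. In SCI against naive the number of called genes among the 9 was 2 without SCI 3 or naive 1, and 3 without SCI 2 or naive 2 or with all libraries thinned to equal depth. Isg15 and Bst2 were called in every one of these settings.

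**Figure D2:**
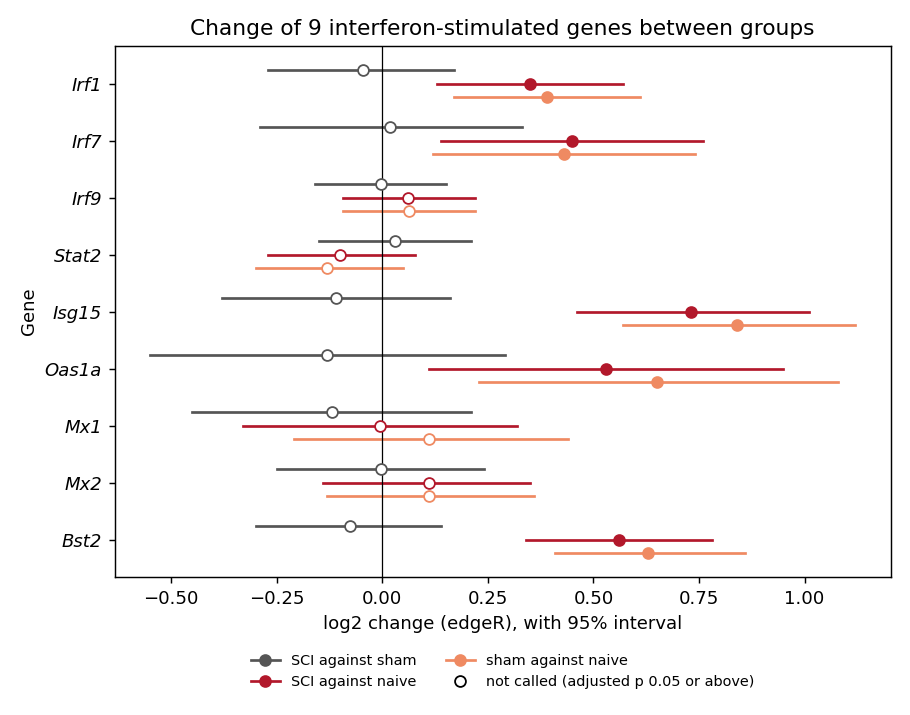
Log2 change (horizontal axis) of the 9 genes (vertical axis) in SCI against sham, SCI against naive and sham against naive, with 95% intervals from edgeR. Filled points were called at an adjusted p under 0.05. The intervals of SCI against sham all include 0, and Isg15, Bst2, Oas1a, Irf1 and Irf7 lie to the right of 0 in both comparisons with naive ganglia.

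The 9 genes varied between the SCI libraries in nearly the same order. SCI 1 was the lowest SCI library for 9 of the 9 genes and SCI 3 the highest for 8, while over all tested genes SCI 1 was the lowest for 35.0% and SCI 3 the highest for 34.7%. The mean of the 9 standardized log2 levels was -0.656 in SCI 1, 0.38 in SCI 2 and 1.08 in SCI 3, and ran from 0.0748 to 0.811 in sham and from -0.795 to -0.457 in naive libraries. The order was not particular to the 9 genes. In SCI 1 to 3, further interferon-stimulated genes summed to 1940, 2070 and 2160 CPM and MHC class I genes to 1560, 1630 and 1810 CPM. Genes of Isg15 conjugation summed to 48.9, 57.9 and 63.3 CPM. Sums of receptors, kinases and STAT factors, further IRF factors, sensors and inhibitors did not rise in this order. Macrophage markers did not follow it either, with a sum of 625, 596 and 646 CPM in SCI 1 to 3. Markers of neutrophils summed to 50.4, 48.1 and 106 CPM and those of red cells to 409, 462 and 849 CPM in SCI 1 to 3, both highest in SCI 3. Muscle markers summed to 63.9, 88.4 and 101 CPM in SCI 1 to 3. Schwann cell markers were highest in SCI 1, with sums of 23000, 18900 and 18900 CPM. In the opposite order to the 9 genes, satellite glia markers summed to 1680, 1640 and 1610 CPM. Genes with very long coding sequences summed to 2390, 2260 and 2140 CPM. On the first principal component SCI 1 scored 14.2, against 20.9 for SCI 2 and 22.5 for SCI 3, and so lay nearest to the naive libraries. The part of these in the levels of the 9 genes was not tested. Without SCI 1, the change in SCI against sham turned positive for 5 genes, at a log2 change of 0.0116 for Isg15, 0.13 for Oas1a, 0.0043 for Irf1, 0.0837 for Mx2 and 0.0577 for Irf9, and none was called.

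Some of the genes moved together from library to library within groups, most of all across the SCI libraries already described. The mean of their standardized deviations from group means was -1.31 in SCI 1 and 1.13 in SCI 3. It ran from -0.425 to 0.351 over the sham and naive libraries. After the group means were subtracted, the Pearson correlation over 9 libraries had a median of 0.47 over the 36 pairs, with 29 positive, and it is given as a description of libraries that share depth and composition. The closest pairs were Irf7 with Oas1a at 0.983 and Irf9 with Oas1a at 0.913. Bst2 and Irf1 stood apart, with Bst2 at -0.557 with Stat2 and Irf1 at -0.388 with Mx2. In the sham group Bst2 and Irf1 were highest in sham 3, with 48.4 and 21.5 CPM, while Mx2 and Stat2 were highest in sham 1, with 49.8 and 97.4 CPM. Sham 3 also had the highest macrophage marker sum, 764 CPM against 474 in sham 1 and 648 in sham 2. Sums of T and NK cell, endothelial, satellite glia and Schwann cell markers and of ribosomal protein genes rose in the same order. Schwann cell markers stood at 17400, 19100 and 21800 CPM in sham 1 to 3, while neuron markers fell, at 47300, 37100 and 32400 CPM. Markers of B cells, neutrophils, red cells and muscle were highest in sham 2. The part of these shifts in Bst2 and Irf1 was not tested.

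**Figure D3:**
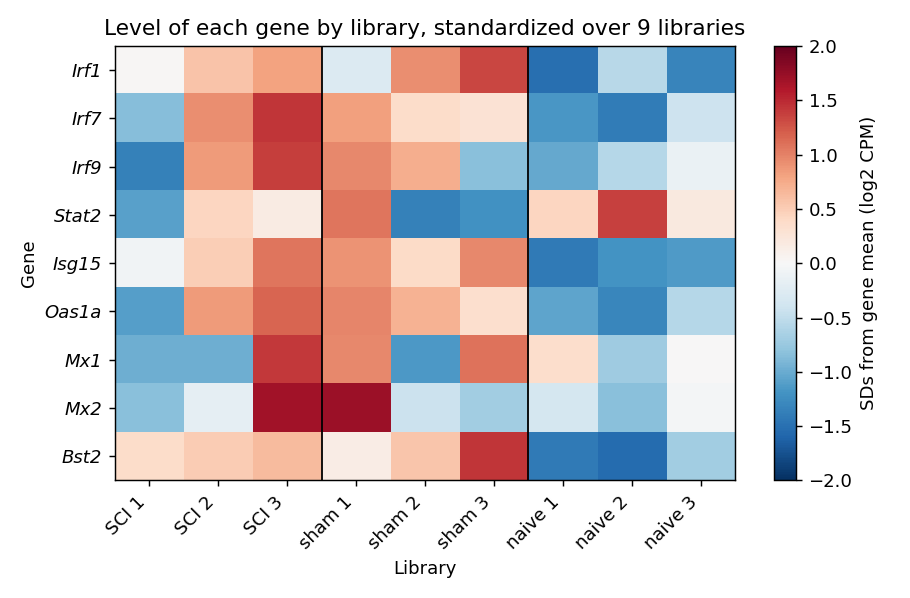
Level of each of the 9 genes (rows) in each library (columns), in SDs of log2 CPM from the gene's own mean over 9 libraries. SCI 1 is the lowest SCI library for all 9 genes, and Bst2 and Irf1 peak in sham 3.

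The gene outside the 9 whose log2 CPM followed their mean standardized level most closely was Oas1k, another oligoadenylate synthetase gene, with a Pearson correlation of 0.982 over 9 libraries. It stood at 5.53, 7.76 and 9.36 CPM in the SCI libraries, 8.67, 6.60 and 8.08 CPM in the sham libraries and 5.68, 5.60 and 5.94 CPM in the naive libraries. Bcs1l, Tbrg1, Wdr53 and Tbcc followed, at 0.962 to 0.948. These values rest on libraries that fall into an operated and a naive cluster. With group means subtracted, the 5 closest genes were Aifm1 (0.993), Tbrg1 (0.981), Trappc1 (0.978), Oas1k (0.971) and Nnat (0.969). Oas1k lies in the same family of copies as Oas1a, so shared reads can add to their likeness.

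Upstream of the 9 genes, the interferons themselves were at the limit of detection. Of 8 interferon genes found in the table, Ifng, Ifna2 and Ifnl3 had 0 counts in all 9 libraries. The other 5 reached at most 2 counts in any library, with 5 counts in total for Ifnb1 and 6 for Ifne. A count of 0 allows a level of up to 0.0927 to 0.178 CPM, depending on the library, which covers counting error only. No interferon gene passed the filter, so none was tested.

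The list counts that follow are to be read against all tested genes, of which 23.9% were called higher and 24.6% lower in SCI against naive, and 24.7% higher and 25.9% lower in sham against naive. All 6 receptor chains were tested, and 1 was called higher and 1 lower (16.7% each) in SCI against naive, both below those shares. Ifngr2, a chain of the type II receptor, averaged 44.2 ± 2.12 CPM in SCI ganglia, 46.0 ± 3.40 CPM in sham ganglia and 35.3 ± 1.33 CPM in naive ganglia (SD, n = 3 each, here and below), with a log2 change of 0.32 in SCI against naive (edgeR adjusted p = 0.00229). Ifnar1, a chain of the type I receptor, averaged 86.1 ± 1.27 CPM in SCI ganglia, 88.8 ± 7.63 CPM in sham ganglia and 101 ± 0.949 CPM in naive ganglia, with a log2 change of -0.22 (edgeR adjusted p = 0.0130). Of 8 kinases and STAT factors below the receptors, 4 were called lower (50%) and none higher in SCI against naive, and the same counts held in sham against naive. Among those called lower, the log2 change in SCI against naive was -0.40 for Jak1, -0.43 for Jak2 and -0.29 for Stat3.

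Among 6 further IRF factors, 3 were called higher (50%) and 1 lower (16.7%) in SCI against naive, with the same counts in sham against naive. Irf3, which starts interferon transcription after virus sensing, stood at 69.5 ± 5.10 CPM in SCI ganglia, 64.1 ± 9.67 CPM in sham ganglia and 49.1 ± 3.40 CPM in naive ganglia. Irf5 and Irf8, factors of myeloid cells, had log2 changes of 0.58 and 0.54 in SCI against naive, and Irf4, a factor of lymphocytes, had -1.37 (SE 0.24) at 0.609 ± 0.195 CPM in SCI ganglia, 0.929 ± 0.0769 CPM in sham ganglia and 1.65 ± 0.232 CPM in naive ganglia. Of 15 sensors of nucleic acids with their adaptors and kinases, 2 were called higher (13.3%) and 1 lower (6.67%) in SCI against naive, both below the shares over all tested genes. Dhx58, a regulator of RNA sensing, and Unc93b1, a carrier of endosomal Toll-like receptors, had log2 changes of 0.57 and 0.25. Tbk1, the kinase that activates Irf3, had -0.32.

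Of 59 further interferon-stimulated genes tested, 20 were called higher (33.9%) and 9 lower (15.3%) in SCI against naive, and 18 higher (30.5%) and 7 lower (11.9%) in sham against naive. Over all tested genes the shares were 23.9% higher and 24.6% lower in SCI, and 24.7% higher and 25.9% lower in sham. Their median log2 change was 0.16 in SCI and 0.11 in sham. Ifi27l2b, of the Ifi27 family, rose most clearly, with 191 ± 8.80 CPM in SCI ganglia, 198 ± 17.0 CPM in sham ganglia and 99.5 ± 9.91 CPM in naive ganglia (log2 change 0.94, SE 0.09, SCI against naive, edgeR adjusted p = 2.87e-06). Ly6e, Ifi27 and Ifitm1, which encodes a membrane protein that hinders viral entry, had log2 changes of 0.42, 0.49 and 0.74. Parp14, Znfx1, Slfn5 and Trim21 were called lower, with log2 changes of -0.46, -0.31, -0.52 and -0.28. Further targets of type I interferon such as Rsad2, Ifit3 and Usp18 were not called, with log2 changes of -0.44 (SE 0.22), 0.24 (SE 0.21) and 0.18 (SE 0.20), and these 3 were chosen after their values were seen.

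Enzymes that attach Isg15 to proteins were split. Uba7, the activating enzyme, stood at 11.9 ± 1.55 CPM in SCI ganglia, 10.3 ± 0.820 CPM in sham ganglia and 7.83 ± 1.57 CPM in naive ganglia, and Ube2l6, the conjugating enzyme, at 32.8 ± 3.18 CPM in SCI ganglia, 32.5 ± 1.31 CPM in sham ganglia and 26.2 ± 1.27 CPM in naive ganglia. Both were called higher in SCI against naive, with an edgeR adjusted p of 0.00425 for Uba7 and 0.00466 for Ube2l6. Herc6, the main ligase in mouse, was called lower (log2 change -0.48, SE 0.14), and Usp18, which removes Isg15, was not called.

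Genes of MHC class I presentation, which interferons also induce, were called higher in 12 (60%) and lower in 1 (5%) of 20 cases in SCI against naive, and higher in 13 (65%) and lower in 1 (5%) of 20 in sham against naive. The median log2 change was 0.43 in SCI and 0.44 in sham. The immunoproteasome subunits Psmb9 and Psmb10 had log2 changes of 0.66 and 0.53 in SCI against naive, the proteasome activator Psme2 0.47 and the peptide editor Tapbpl 0.44. Psmb9 averaged 11.4 ± 0.236 CPM in SCI ganglia, 12.4 ± 1.28 CPM in sham ganglia and 7.24 ± 0.605 CPM in naive ganglia. Erap1, a peptide-trimming enzyme, was the gene called lower, at -0.53. Reads of the class I heavy chain genes may be split between near-identical copies.

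Of 12 inhibitors of interferon signalling, 6 were called higher (50%) and 1 lower (8.33%) in SCI against naive, and 7 higher (58.3%) and 1 lower (8.33%) in sham against naive. Socs3 stood at 5.54 ± 0.444 CPM in SCI ganglia, 4.56 ± 0.506 CPM in sham ganglia and 3.48 ± 0.420 CPM in naive ganglia, and Socs1 at 2.81 ± 0.313 CPM in SCI ganglia, 2.73 ± 0.0571 CPM in sham ganglia and 1.71 ± 0.439 CPM in naive ganglia. Both encode proteins that block JAK kinases. Trex1, a nuclease that removes DNA from the cytosol, and the phosphatase gene Ptpn6 had log2 changes of 0.47 and 0.66, and Pias1 had -0.46. No gene of any of these lists was called between SCI and sham, where 0% of all 16627 tested genes were called.

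**Figure D4:**
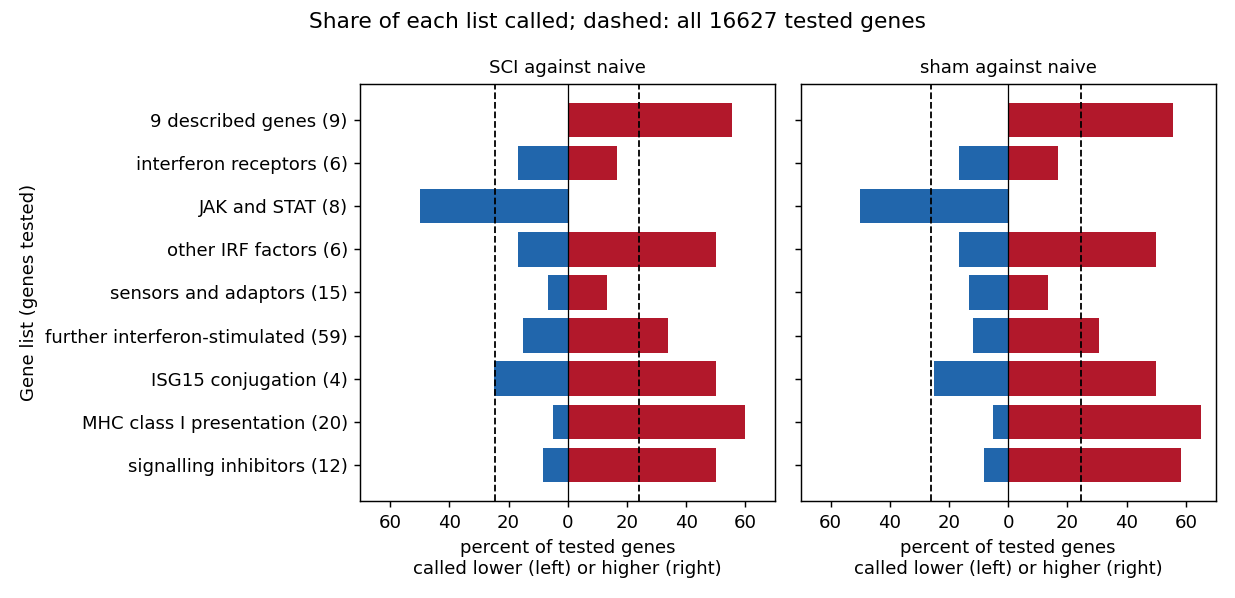
Percent of the tested genes of each list (rows, number tested in parentheses) called higher (right, red) or lower (left, blue) in SCI against naive and in sham against naive. Dashed lines mark the percent of all 16627 tested genes. JAK and STAT genes are called lower in 4 of 8 cases, and MHC class I genes higher in 12 and 13 of 20.

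Markers of cell types moved between operated and naive ganglia as well. Of 16 macrophage markers, 9 were called higher and 2 lower in SCI against naive, and the same counts held in sham against naive. Their sum ran from 596 to 646 CPM in SCI, from 474 to 764 in sham and from 413 to 494 in naive libraries, and none was at 0. T and NK cell markers summed to 35.7 to 36.6 CPM in SCI, 28.9 to 45.1 in sham and 21.0 to 26.9 in naive libraries, most of it Cd4, which rat macrophages also carry. Of 7 T and NK cell markers tested, 3 were called higher (42.9%) and 1 lower (14.3%) in SCI against naive. In sham against naive, 2 were called higher (28.6%) and 1 lower (14.3%). Gzmb, which did not pass the filter, was at 0 in all SCI and sham libraries and reached 0.0362 CPM in naive libraries. Siglech, which marks plasmacytoid dendritic cells, the strongest producers of type I interferon, had at most 0.0909 CPM in any library, below the level that 3 counts would have there. Spib, Bcl11a and Tlr9 of the same marker list were detected and tested. Of these 3, 1 was called lower (33.3%) and none higher in each comparison with naive ganglia. The list summed to 5.48 to 6.12 CPM in SCI, 6.20 to 7.20 in sham and 6.74 to 8.61 in naive libraries. Of 8 Schwann cell myelin markers, 7 were called lower and none higher in SCI against naive. Skeletal muscle markers summed to 63.9 to 101 CPM in SCI, 136 to 156 CPM in sham and 64.1 to 105 CPM in naive libraries. The part of these shifts in the changes of the 9 genes was not tested.

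The kind of message moved with the groups too. Of 25 tested genes with very long coding sequences, 25 were called lower in both comparisons with naive ganglia, with a median log2 change of -1.1 in SCI, and of 37 tested cytosolic ribosomal protein genes, whose messages are short, 36 were called higher in SCI against naive, with a median of 0.61. Both lists were written with these shifts known. Lengths of the 9 genes' transcripts were not used here, and the part of message length in the changes of Isg15, Bst2, Oas1a, Irf1 and Irf7 was not tested.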

How the data were processed

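The labels' protocols name an RNeasy Mini Kit for the RNA and the TruSeq V2 kit, which does not mark strand, for paired-end libraries. The submitters' processing notes name FastQC, Trimmomatic, TopHat2, HTSeq and DESeq2. Their versions, the build and the gene models were not given in the sources used here. Raw counts per gene were what the authors deposited.

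Groups came from the sample titles. The counts were tested with edgeR (version 4.0.16, R 4.3.3), with TMM scaling, edgeR's own filter on low counts, a single model of the 9 libraries with 6 residual degrees of freedom, Benjamini-Hochberg adjustment and calls at an adjusted p under 0.05. A prior count of 2 was added for log2 CPM. The test was checked on simulated data.

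The members and lists were chosen with earlier results of these data known. The 9 genes were all named. From each further list, up to 4 called genes in each direction with the smallest p in SCI against naive were named, apart from a gene not reported here. The lists of ribosomal and very long genes were added last. Of 346 listed symbols, 316 were matched, partly through older names in a RefSeq table of GRCr8. Promoters are RefSeq sequences of GRCr8.

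The number of genes called, over all genes and among the 9, and the log2 change of each of the 9 were recomputed with RLE or upper-quartile scaling, without the filter, with a strict filter (1 CPM in 3 libraries), DESeq2 (version 1.42.0), limma-voom (version 3.58.1), a robust spread, the 2 groups compared alone, the replicate number as a block, thinning to equal depth, and each library left out in turn. List counts, correlations and motif counts were not recomputed.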

Additional observations from a re-analysis of the deposited data

How the results depend on the processing

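The direction of the 5 called genes was kept in both comparisons with naive ganglia under all 19 alternatives run. Among the 9 genes, the number called in SCI against naive was 3 with libraries thinned to the shallowest total and 4 with limma-voom. It ran from 2 to 5 with a library left out. In sham against naive it was 4 after thinning and ran from 4 to 5 with a library left out. The 5 called without sham 1 were 4 higher and 1 lower, with Irf7 lost and Stat2 called lower. In SCI against sham it was 0 throughout. Thinning was a single random draw. Irf1 and Oas1a then missed the threshold in SCI against naive, and Oas1a in sham against naive. In SCI against naive the thinned log2 change was 0.25 (SE 0.10) for Irf1, against 0.35 (SE 0.10) with all counts. For Oas1a it was 0.43 (SE 0.19), against 0.53 (SE 0.20). In sham against naive Oas1a was at 0.46 after thinning, against 0.65. The cause was not tested, either for thinning or for the left-out libraries. Over all genes, SCI against sham had 11 calls without a low-count filter, 9 with DESeq2, and from 0 to 22 with a library left out, 22 being the count without sham 3.

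Reversed directions were all of changes that were not called. In SCI against sham, Mx2 was at 0.0297 after thinning, Irf7 at -0.0341 with limma-voom, and Irf9 at 0.0017 without a filter and 0.0115 after thinning. In SCI against naive, Mx1 was at 0.0116 with upper-quartile scaling. With a library left out, the log2 changes in SCI against sham ran from -0.24 to 0.0116 for Isg15, -0.13 to 0.13 for Mx2, -0.15 to 0.0302 for Irf1, -0.13 to 0.20 for Irf7, -0.0473 to 0.0577 for Irf9, -0.021 to 0.12 for Stat2, -0.30 to 0.13 for Oas1a and -0.17 to 0.0477 for Bst2. In SCI against naive they ran from -0.19 to 0.0929 for Mx1 and -0.0198 to 0.20 for Mx2, and in sham against naive from -0.0331 to 0.20 for Mx2.

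The replicate numbers recur in all groups, but nothing in the labels ties equal numbers to a common animal or day, and deviations of same-numbered libraries correlated at -0.0946 to 0.124. With the replicate number as a block, 5 of the 9 genes were called in SCI against naive, 5 in sham against naive and 0 in SCI against sham, and over all genes 7848 were called in SCI against naive, 8153 in sham against naive and 0 in SCI against sham.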
